A study of Mus musculus with 48 samples.

Results

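The genotype by diet interaction in visceral fat asks whether a cystine-free diet acts differently on this depot when mice lack cystathionine gamma-lyase. It was measured in all 16 visceral fat libraries of a series of 48, named EFAT in the labels, and every gene that passed a filter on low counts entered the test, 17248 in all. The libraries are poly(A) RNA of snap-frozen visceral fat from male mice in 4 groups of 4: Cth+/+ on control diet (CTRL), Cth+/+ on the cystine-free diet (CysF), Cth-/- on CTRL and Cth-/- on CysF, each diet given for 6 days. The interaction is the log2 change from CTRL to CysF in Cth-/- mice minus the same change in Cth+/+ mice. Both Cth-/- groups carry the deletion, and the sources used here give neither age, nor strain, nor the design of the allele. The other 32 libraries, from subcutaneous (SFAT) and brown fat (BAT), served only to test whether the interaction differs between depots.

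Cth encodes cystathionine gamma-lyase, the last enzyme of the transsulfuration pathway, which makes cysteine with sulfur from methionine. With the enzyme, cysteine can be made when the diet holds no cystine, its oxidised form; without it, cysteine must come from food. White fat stores fatty acids as triglyceride, releases them by lipolysis, secretes hormones such as leptin, and is held in a collagen-rich matrix.

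Expected counts per EFAT library summed to between 18710000 and 36110000. Levels are CPM, counts scaled to library size with TMM factors, and every interaction is a log2 difference ± SE from the edgeR quasi-likelihood fit, with p-values adjusted by Benjamini-Hochberg over all genes tested. Libraries are called replicates by the numbers in their labels, which do not state that each is a separate animal, so the p-values reflect spread among libraries, which may be technical. In bulk tissue, fewer cells of a type and less RNA per cell cannot be told apart.

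Cth was at 9.27 to 14.4 CPM in the Cth+/+ libraries and at 0 to 0.203 CPM in the Cth-/- libraries. Adipoq, the gene of the fat hormone adiponectin, was at 1319 to 3038 CPM, so fat cell RNA was abundant in all 16. Libraries stood apart both between and within groups. The first principal component held 56.1% of the variance. Its scores were 63.3 to 86.4 in Cth-/- CysF, above all others. They were -117 to 30.8 in Cth+/+ CTRL, -119 to 33.0 in Cth+/+ CysF and -103 to 49.0 in Cth-/- CTRL. Epcam, an epithelial adhesion gene, was under 1 CPM in replicates 2, 11 and 14. It was at 30 CPM or more in 10 libraries, 2 of each group but Cth-/- CysF and all 4 of that one. Adam7, a gene of the epididymis, exceeded 100 CPM in replicates 16 and 20, both Cth-/- CysF. The summed CPM of 18 epididymal and other epithelial markers, 1 of them at 0 in all 16 libraries, was 1.32 to 80.4 in Cth+/+ CTRL, 0.920 to 80.5 in Cth+/+ CysF, 2.80 to 85.3 in Cth-/- CTRL and 60.1 to 2236 in Cth-/- CysF. Within Cth-/- CysF this sum was 650 and 2236 in replicates 16 and 20, and 61.5 and 60.1 in replicates 17 and 18. Reads of the gene Gm43512 at 0.1 CPM or more marked another split of the libraries (set B). It held 3 libraries of Cth+/+ CTRL, 0 of Cth+/+ CysF, 1 of Cth-/- CTRL and 3 of Cth-/- CysF, so it is partly aligned with the interaction. What these libraries share is not given. Replicate 2 of Cth+/+ CTRL was just over the bound at 0.107 CPM, with replicate 10 of Cth+/+ CysF below it at 0.0557 CPM. The rest of set B was at 2.84 to 28.0 CPM. The part of these splits in the results was not tested beyond the values given beside them.

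The genotypes differed in their response to the diet. The interaction passed the test for 1792 of 17248 genes (10.4%), 870 higher in the Cth-/- response (5.04%) and 922 lower (5.35%), around a median of 0.06 over all genes tested. Each count of list members below stands against these shares. The diet passed for 4976 genes (28.8%) in Cth-/- mice and for 0 in Cth+/+ mice by edgeR, where 678 genes had an unadjusted p under 0.05 and DESeq2 called 36. The interaction count was 57 with the library set as a term, 536 without the 3 libraries under 1 CPM of Epcam, 202 in the 10 libraries at 30 CPM or more and 1843 with the Epcam level as a covariate. Leaving out 1 library gave 714 (without replicate 4) to 3414 (without replicate 16), and replicates 1, 8, 12, 14, 15, 17 and 20 also moved the count by over 1.5 times (1045, 1130, 715, 789, 2924, 840 and 822 genes without each). The diet count in Cth-/- mice was 2962 without replicate 12 and 3280 without replicate 14.

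Cth-/- mice on the cystine-free diet stood apart from the other groups. Among the 1792 genes, Cth-/- CysF was the group whose mean log2 CPM lay farthest from the mean of the other groups for 1742 (97.2%), against 71.7% of all genes tested. Cth+/+ CysF was that group for 36 genes, Cth-/- CTRL for 9 and Cth+/+ CTRL for 5. All 4 Cth-/- CysF libraries lay above the other 12 for 597 of the 1792 genes and below them for 716, out of 1754 and 1507 such genes among all tested.

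**Figure D1:**
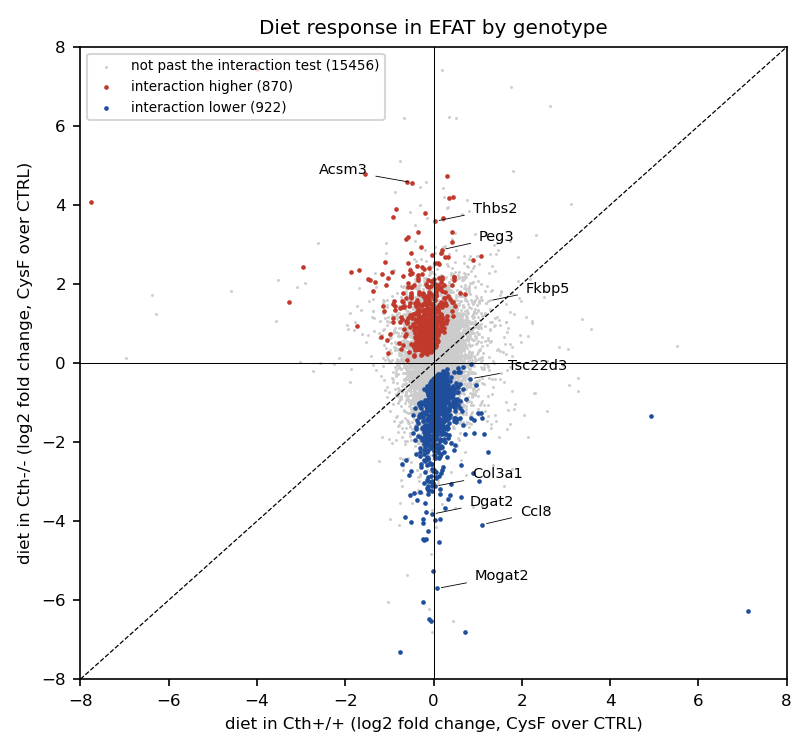
Log2 change from CTRL to CysF in Cth+/+ mice (x axis) and in Cth-/- mice (y axis) for each gene tested in EFAT, coloured by the interaction test at an adjusted p under 0.05; the dashed line marks equal change, and 7 genes lie outside the axes. Coloured genes spread mainly along the vertical axis, where the change is in Cth-/- mice.

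Among lipid genes, Acsm3, a medium-chain acyl-CoA synthetase of mitochondria (ENSMUSG00000030935.15, GRCm38 chromosome 7, 119760923 to 119787513, plus strand), had one of the largest positive interactions. It was at 4.29, 8.71, 19.5 and 10.4 CPM in Cth+/+ CTRL and at 4.30, 2.95, 11.3 and 12.3 CPM in Cth+/+ CysF. It was at 7.92, 14.4, 12.3 and 7.83 CPM in Cth-/- CTRL and at 128, 299, 211 and 368 CPM in Cth-/- CysF. The 4 Cth-/- CysF libraries lay above all others, while the other groups overlapped (5.05 ± 0.72, adjusted p = 0.00155). Its list, acyl-CoA thioesterases, which free fatty acids from coenzyme A, and medium-chain synthetases, had 5 of 15 tested members higher and 1 lower, with a median of 0.72. Acsm5, another synthetase, rose in Cth-/- mice from 7.01 ± 1.37 to 21.1 ± 0.860 CPM (SD, n = 4; interaction 1.77 ± 0.33, adjusted p = 0.00660 by edgeR). The thioesterase gene Acot4 was also higher (1.26 ± 0.33, adjusted p = 0.0287; not past the test without replicate 3, 8, 12, 14 or 18). Acot3, a peroxisomal thioesterase gene, was at 4.53 to 18.4 CPM in Cth-/- CysF and at 0 to 0.219 CPM in the other 12 libraries. It thus passed the filter on low counts only through Cth-/- CysF. Its interaction did not pass by edgeR (5.24 ± 2.26, adjusted p = 0.136) and passed by DESeq2. In all, 2 members of the list passed with the library set as a term and 3 without the 3 libraries under 1 CPM of Epcam.

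The promoter window of Acsm3 (chr7:119760673-119760972, plus strand, RefSeq, GRCm38.p6, 250 bases before to 50 after the start) is shown because this gene had one of the largest positive interactions. Capitals mark 2 matches to the D-box TTANGTAA, an element of circadian output genes, and 1 match to the C/EBP element TTGCNNAAN, searched on both strands and not overlapping each other.
Acsm3: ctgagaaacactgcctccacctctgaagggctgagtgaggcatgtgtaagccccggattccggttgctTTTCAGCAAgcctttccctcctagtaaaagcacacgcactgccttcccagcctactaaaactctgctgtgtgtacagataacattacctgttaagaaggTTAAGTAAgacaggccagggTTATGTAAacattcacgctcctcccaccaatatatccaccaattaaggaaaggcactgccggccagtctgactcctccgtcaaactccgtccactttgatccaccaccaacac
The called genes come from the 11873 tested genes with a promoter in the table, which are the matched background. The D-box letters were in a promoter of 2.01% of these genes, of 1.59% of the 627 with a higher interaction and of 1.95% of the 668 with a lower one. Counted per promoter rather than per gene, they were in 2.32% of all 32851 promoters of this length. The C/EBP letters were in 10.3%, 11.2%, 10.2% and 10.8% of the same sets. A match describes the letters of the window and is not a binding site.

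Of 16 tested triglyceride assembly genes 5 were lower in the Cth-/- response and 0 higher, with a median of -0.36. Dgat2, which adds the last acyl chain of triglyceride (ENSMUSG00000030747.5, chromosome 7, 99153658 to 99182719, minus strand), was at 3291, 4203, 3816 and 2368 CPM in Cth+/+ CTRL and at 2531, 3241, 2961 and 4605 CPM in Cth+/+ CysF. It was at 4868, 1654, 4378 and 957 CPM in Cth-/- CTRL and at 283, 232, 166 and 155 CPM in Cth-/- CysF. Within Cth-/- CTRL, replicates 13 and 15 were below 12 and 14, and all 4 were above every Cth-/- CysF library (-3.79 ± 0.60, adjusted p = 0.00283). Mogat2, a monoacylglycerol acyltransferase gene beside Dgat2 (chromosome 7, 99219084 to 99238619, minus strand), was at 1.38 to 41.9 CPM in the other 12 libraries and at 0.140 to 0.201 CPM in Cth-/- CysF, without overlap (-5.79 ± 1.28, adjusted p = 0.0157). Its relative Mogat1 (-2.30 ± 0.42, adjusted p = 0.00611) and Agpat2, which adds the second acyl chain (-2.35 ± 0.56, adjusted p = 0.0217; not past the test without replicate 4 or 12), were lower. With the library set as a term 0 passed, and without the 3 libraries under 1 CPM of Epcam 2.

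Genes that release or take up fatty acids did not move one way. Pnpla2, which encodes ATGL, the lipase that starts triglyceride breakdown, was at 1392 to 1522 CPM in Cth+/+ CTRL, 946 to 1525 in Cth+/+ CysF, 1247 to 1473 in Cth-/- CTRL and 2234 to 2734 in Cth-/- CysF. The last group lay above the rest (1.09 ± 0.20, adjusted p = 0.00608). Mgll, the lipase gene that completes the breakdown, was lower (-1.21 ± 0.31, adjusted p = 0.0258; not past the test without replicate 4, 12, 14, 17 or 20), as was Pnpla3, a lipid droplet protein (-3.21 ± 0.50, adjusted p = 0.00255). Lipe, the hormone-sensitive lipase gene, did not pass (-0.39 ± 0.25, adjusted p = 0.306). Of 20 tested lipolysis and droplet genes, 1 was higher and 5 were lower, with a median of -0.57. Slc27a1, a fatty acid transporter, rose in Cth-/- mice from 231 ± 25.0 to 765 ± 124 CPM (1.66 ± 0.20, adjusted p = 6.5e-04 by edgeR). Its list of 36 uptake and oxidation genes had 1 higher and 3 lower, 11.1% called against 10.4% of all genes tested.

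In fatty acid synthesis, 2 of 22 tested genes were higher and 1 lower, with a median of -0.95. This is 13.6% called, against 10.4% of all genes tested. Fasn, the fatty acid synthase gene, was at 23707 and 21641 CPM in replicates 12 and 14 of Cth-/- CTRL and at 4438 and 2721 in replicates 13 and 15. It was at 5791, 3744, 886 and 2048 CPM in Cth-/- CysF, which overlaps the lower pair, and at 8794 to 23170 CPM in Cth+/+ libraries. Its interaction did not pass (-1.80 ± 0.90, adjusted p = 0.195; past the test in the fit of all 48 libraries, at -1.86), nor did those of the acetyl-CoA carboxylase gene Acaca (-1.32 ± 0.72, adjusted p = 0.234) or the desaturase gene Scd1 (-0.15 ± 0.49, adjusted p = 0.856). Epcam was at 9.40 and 0.339 CPM in replicates 12 and 14, and at 37.8 and 52.7 CPM in 13 and 15. In the 10 libraries at 30 CPM or more of Epcam the interaction was 0.13 for Fasn and 0.27 for Acaca, with the library set as a term 0.06 and 0.13, and with the Epcam level as a covariate -1.16 and -0.69; none of these passed. Acacb, the carboxylase of mitochondria, was higher (1.55 ± 0.38, adjusted p = 0.0245; not past the test without replicate 7, 8, 14, 17 or 18). Of 24 cholesterol synthesis genes 3 were lower and 0 higher (12.5%, against 10.4% of all genes tested), with a median of -1.17. With the diet in Cth-/- mice 17 of them fell, where 14.3% of all genes tested did. DESeq2 called 13 of the 24 interactions lower, and 15 were lower at an unadjusted p under 0.05 by edgeR.

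**Figure D2:**
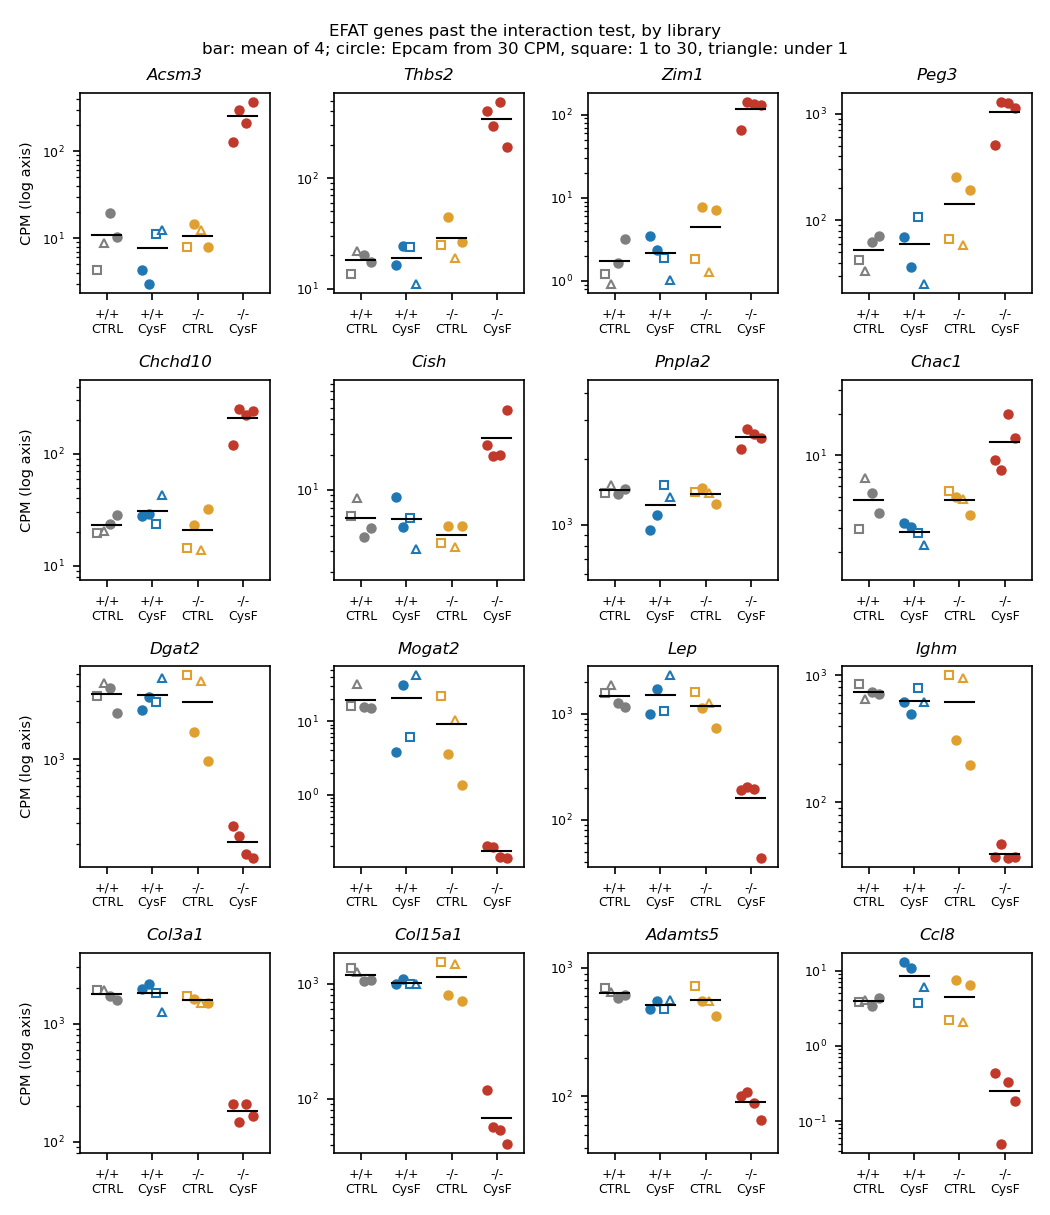
CPM on a log axis of 16 genes past the interaction test in each of the 16 EFAT libraries, by group; bars are means of 4, and the symbol shape gives the Epcam level. In all 16 panels the 4 Cth-/- CysF libraries lie to one side of the other 12.

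Of 37 tested collagen genes 12 were lower in the Cth-/- response and 1 higher, with a median of -0.67. Col3a1, a fibrillar collagen (ENSMUSG00000026043.18, chromosome 1, 45311538 to 45349706, plus strand), had the smallest adjusted p of all interactions. It was at 1905, 1917, 1697 and 1567 CPM in Cth+/+ CTRL and at 1965, 2165, 1813 and 1255 CPM in Cth+/+ CysF. It was at 1713, 1626, 1502 and 1504 CPM in Cth-/- CTRL and at 207, 146, 209.8 and 166 CPM in Cth-/- CysF. The 4 Cth-/- CysF libraries lay far below the other 12, which overlapped among groups (-3.14 ± 0.24, adjusted p = 2.7e-05). Col15a1, a collagen of basement membrane zones, was at 705 to 1543 CPM in the other libraries and at 40.4 to 120.1 CPM in Cth-/- CysF (-3.82 ± 0.45, adjusted p = 4.7e-04). Col1a1, the main chain of collagen I, was at -2.09 ± 0.39, adjusted p = 0.00721, Col6a3, a chain of collagen VI, at -2.34 ± 0.34, adjusted p = 0.00162, and Col5a3 at -2.86 ± 0.67, adjusted p = 0.0197. The number called was 12 to 16 when 1 library was left out, 14 without the 3 libraries under 1 CPM of Epcam, 10 in the 10 libraries at 30 CPM or more, and 3 when the model included the library set.

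Genes that fold, cut and crosslink collagen were lower for 12 of 26 tested members and higher for 0, with a median of -0.56. Serpinh1, the collagen chaperone HSP47, fell in Cth-/- mice from 485 ± 192 to 93.0 ± 17.5 CPM (SD, n = 4; interaction -2.24 ± 0.48, adjusted p = 0.0140 by edgeR). Loxl1, a lysyl oxidase, was at 61.3 to 106 CPM elsewhere and at 21.7 to 29.2 CPM in Cth-/- CysF (-1.71 ± 0.21, adjusted p = 6.5e-04). Pcolce, an enhancer of procollagen cleavage, was lower (-1.56 ± 0.32, adjusted p = 0.0115), whereas Lox, another lysyl oxidase gene, did not pass (-0.01 ± 0.20, adjusted p = 0.974). With the library set as a term 1 member passed.

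Matrix glycoproteins and proteoglycans had 12 of 49 members lower and 3 higher, with a median of -0.54. Fbn1, the microfibril protein fibrillin, fell in Cth-/- mice from 480 ± 169 to 87.1 ± 12.2 CPM (-2.24 ± 0.43, adjusted p = 0.00779). Nid2, a basement membrane linker (-1.83 ± 0.36, adjusted p = 0.00945), and Lum, a collagen-binding proteoglycan (-1.15 ± 0.23, adjusted p = 0.00862), were lower. Thbs2, the matricellular protein thrombospondin 2, moved the other way, at 11.0 to 44.9 CPM elsewhere and 191 to 486 CPM in Cth-/- CysF (3.55 ± 0.47, adjusted p = 0.00101). Omd, osteomodulin (2.12 ± 0.50, adjusted p = 0.0212; not past the test without replicate 4), and Dcn, decorin (0.92 ± 0.26, adjusted p = 0.0363; not past the test without replicate 1, 3, 4, 7, 8, 11, 12, 14, 17, 18 or 20), both proteoglycans, were the other members that were higher.

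Matrix proteases and their inhibitors had 7 of 39 members lower and 2 higher, with a median of -0.40. Adamts5, a protease of aggrecan and versican, fell in Cth-/- mice from 563 ± 124 to 91.0 ± 19.0 CPM (-2.34 ± 0.24, adjusted p = 4.3e-04). Its relatives Adamts15 (-1.85 ± 0.38, adjusted p = 0.0120) and Adamts16 (-4.27 ± 0.79, adjusted p = 0.00663) were lower too. Mmp11, the matrix metalloproteinase stromelysin 3, was at 2.05 to 10.5 CPM elsewhere and at 40.7 to 82.1 CPM in Cth-/- CysF (3.29 ± 0.46, adjusted p = 0.00135). Of 15 fibroblast and progenitor markers, none of them at 0 in all libraries, 3 were lower and 1 higher, and their summed CPM was 5466 to 8545 in Cth+/+ CTRL, 4704 to 10538 in Cth+/+ CysF, 7837 to 9607 in Cth-/- CTRL and 5221 to 7681 in Cth-/- CysF. Dpt, the matrix protein dermatopontin (-1.84 ± 0.31, adjusted p = 0.00368), and Pi16, a marker of early progenitors (-1.08 ± 0.24, adjusted p = 0.0156), were among the lower ones. Dcn was the 1 higher marker, at 1781 to 2336 CPM in Cth-/- CysF and 775 to 1358 CPM elsewhere, with the limits given above. The part of fibroblast content in the matrix results was not tested.

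**Figure D3:**
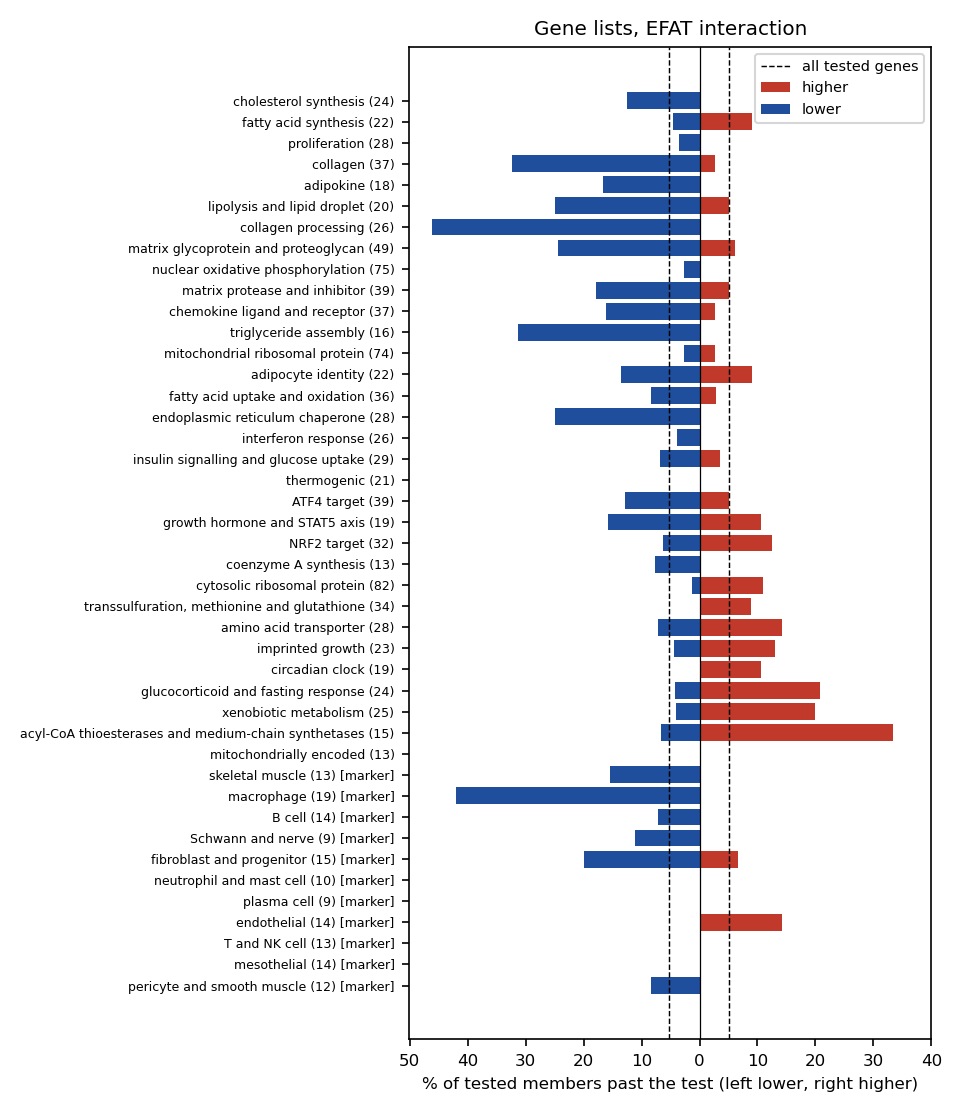
Percent of the tested members of each gene list (number in parentheses) that passed the EFAT interaction test, lower to the left and higher to the right; dashed lines mark the same percent of all tested genes, 5.35% and 5.04%. Collagen processing and macrophage lists reach farthest to the left.

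Chaperones of the endoplasmic reticulum, where secreted proteins fold, had 7 of 28 members lower and 0 higher, with a median of -0.20. Hspa5, the chaperone BiP, was at 353 to 481 CPM elsewhere and at 231 to 272 CPM in Cth-/- CysF (-0.86 ± 0.15, adjusted p = 0.00397). Edem1, which hands misfolded glycoproteins to degradation (-1.49 ± 0.22, adjusted p = 0.00206), and Sdf2l1, a cofactor of BiP (-1.42 ± 0.28, adjusted p = 0.00850), were lower. Hsp90b1, the chaperone GRP94, did not pass (0.03 ± 0.15, adjusted p = 0.917).

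Genes of glutathione turnover and of amino acid shortage were higher or lower gene by gene. Chac1, an enzyme that breaks down glutathione (ENSMUSG00000027313.3, chromosome 2, 119351229 to 119354381, plus strand), was at 2.95, 6.85, 5.34 and 3.81 CPM in Cth+/+ CTRL and at 3.23, 3.02, 2.75 and 2.23 CPM in Cth+/+ CysF. It was at 5.51, 4.98, 4.83 and 3.73 CPM in Cth-/- CTRL and at 9.29, 7.78, 19.9 and 13.3 CPM in Cth-/- CysF. All 4 Cth-/- CysF libraries were above the other 12; the change was 1.40 ± 0.30 in Cth-/- mice (adjusted p = 0.00392) and -0.76 ± 0.30 in Cth+/+ mice, which did not pass (interaction 2.15 ± 0.42, adjusted p = 0.00850 by edgeR). Gclc, the catalytic subunit that limits glutathione synthesis, was higher (1.08 ± 0.23, adjusted p = 0.0137). Of 34 genes of transsulfuration, the methionine cycle and glutathione, 3 were higher and 0 lower, with a median of 0.21. This is 8.82% called, against 10.4% of all genes tested. Of 32 targets of NRF2, a regulator of antioxidant genes, 4 were higher and 2 lower (18.75% called, against 10.4%), with a median of -0.03.

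Targets of ATF4, the transcription factor of the amino acid response, had 2 of 39 members higher and 5 lower. Their median was -0.10, and 17.95% were called, against 10.4% of all genes tested. Chac1 was among the higher ones. Pycr1, an enzyme of proline synthesis (-1.75 ± 0.35, adjusted p = 0.00906), and Psph, the last enzyme of serine synthesis (-1.97 ± 0.51, adjusted p = 0.0282; not past the test without replicate 1, 3, 4, 11, 12, 14, 17, 18 or 20), were lower. Asns, asparagine synthetase, did not pass (0.46 ± 0.24, adjusted p = 0.203), nor did the stress hormone genes Fgf21 (0.77 ± 1.02, adjusted p = 0.648) and Gdf15 (0.85 ± 0.71, adjusted p = 0.448), which were at 0.0429 to 0.811 and 0.106 to 0.935 CPM in the 16 libraries. Slc7a11, the cystine importer, was at 0.631 to 2.51 CPM elsewhere and 1.38 to 8.89 CPM in Cth-/- CysF, and did not pass (0.60 ± 0.70, adjusted p = 0.596). Of 28 amino acid transporters 4 were higher and 2 lower (21.4% called, against 10.4% of all genes tested). Slc43a1, a carrier of large neutral amino acids, was at 11.0 to 24.0 CPM elsewhere and at 86.5 to 149 CPM in Cth-/- CysF (2.52 ± 0.34, adjusted p = 0.00122), and Slc7a6, a carrier of cationic amino acids, was lower (-1.14 ± 0.26, adjusted p = 0.0191).

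The promoter window of Chac1 (chr2:119350992-119351291, plus strand, same source and length) is shown because it is an ATF4 target that rose. Capitals mark the single match to TGATGNAAN, letters of the amino acid response element, found here on the opposite strand.
Chac1: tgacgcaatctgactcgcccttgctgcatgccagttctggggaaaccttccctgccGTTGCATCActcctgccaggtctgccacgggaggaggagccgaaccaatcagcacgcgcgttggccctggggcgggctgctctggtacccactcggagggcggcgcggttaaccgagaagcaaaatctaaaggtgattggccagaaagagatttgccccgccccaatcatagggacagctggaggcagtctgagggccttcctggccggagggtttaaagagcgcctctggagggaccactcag
These letters were in a promoter of 2.81% of tested genes, 3.03% of genes with a higher interaction and 3.74% of those with a lower one. Counted per promoter, they were in 3.95% of all promoters.

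Among adipocyte hormones, Lep, the leptin gene (ENSMUSG00000059201.12, chromosome 6, 29060220 to 29073877, plus strand), was at 1589, 1868, 1279 and 1157 CPM in Cth+/+ CTRL and at 994, 1716, 1062 and 2316 CPM in Cth+/+ CysF. It was at 1608, 1133, 1266 and 733 CPM in Cth-/- CTRL and at 193, 206, 198 and 44.2 CPM in Cth-/- CysF. All Cth-/- CysF libraries lay below the other 12, and replicate 20 was the lowest (-2.94 ± 0.58, adjusted p = 0.00906). Apln, the gene of the peptide apelin, was at 9.30 to 78.6 CPM elsewhere and 1.12 to 1.53 CPM in Cth-/- CysF (-3.25 ± 0.85, adjusted p = 0.0296; not past the test without replicate 3, 4, 8, 11, 12, 14, 17, 18 or 20). Npr3, the clearance receptor of natriuretic peptides, was lower (-3.02 ± 0.51, adjusted p = 0.00382). Of 18 adipokine genes 0 were higher and 3 lower (16.7% called, against 10.4% of all genes tested), with a median of -0.64.

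Of 22 adipocyte identity genes 2 were higher and 3 lower. Among those that did not pass, Adipoq was at -0.13 ± 0.27, adjusted p = 0.789, the adipocyte regulators Pparg at -0.38 ± 0.26, adjusted p = 0.342 and Cebpa at -1.12 ± 0.37, adjusted p = 0.0637 (past the test without replicate 15 or 16, by DESeq2 and in the fit of all 48 libraries), and the insulin-responsive glucose transporter gene Slc2a4 at -0.95 ± 0.39, adjusted p = 0.122 (past the test without replicate 16 and in the fit of all 48 libraries). The summed CPM of the 22 genes was 43271 to 49411 in Cth+/+ CTRL, 37955 to 51823 in Cth+/+ CysF, 38901 to 55119 in Cth-/- CTRL and 35187 to 42470.2 in Cth-/- CysF. The range of Cth-/- CysF overlapped those of Cth+/+ CysF and Cth-/- CTRL and lay below that of Cth+/+ CTRL.

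Genes of the growth hormone and STAT5 axis split. Cish, a feedback inhibitor induced by STAT5 (ENSMUSG00000032578.7, chromosome 9, 107296026 to 107302784, plus strand), was at 3.93 to 8.48 CPM in Cth+/+ CTRL, 3.11 to 8.74 CPM in Cth+/+ CysF and 3.22 to 4.95 CPM in Cth-/- CTRL. It was at 24.2, 19.5, 19.6 and 47.6 CPM in Cth-/- CysF, above all others (2.78 ± 0.50, adjusted p = 0.00593). Bcl6, a transcriptional repressor, was lower (-2.35 ± 0.61, adjusted p = 0.0288; not past the test without replicate 4, 12, 14 or 20), and Igf1, the growth factor that growth hormone induces, did not pass (-0.09 ± 0.34, adjusted p = 0.883). Of 19 tested genes 2 were higher and 3 lower, with a median of -0.04.

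The promoter window of Cish (chr9:107296409-107296708, plus strand, same source and length) is shown for 2 matches to the STAT5 letters TTCNNNGAA, in capitals. They stand at the RefSeq start site of this window, which lies inside the gene coordinates given above rather than at their first base.
Cish: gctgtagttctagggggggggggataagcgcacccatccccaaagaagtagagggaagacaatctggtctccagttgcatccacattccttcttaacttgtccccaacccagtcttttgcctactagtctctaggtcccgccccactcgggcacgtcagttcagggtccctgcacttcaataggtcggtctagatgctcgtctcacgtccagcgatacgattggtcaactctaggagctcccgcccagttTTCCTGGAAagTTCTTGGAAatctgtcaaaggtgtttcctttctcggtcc
At least 1 such match was in a promoter of 8.37% of tested genes, 8.13% of genes with a higher interaction and 7.93% of those with a lower one. Counted per promoter, it was in 8.30% of all promoters.

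Among imprinted genes, Zim1, a zinc finger gene of the Peg3 domain (ENSMUSG00000002266.16, chromosome 7, 6671269 to 6696450, minus strand), was at 0.907 to 3.41 CPM in Cth+/+ libraries. It was at 1.82, 7.76, 1.27 and 7.02 CPM in Cth-/- CTRL and at 64.6, 142, 133 and 132 CPM in Cth-/- CysF. Peg3, its paternally expressed neighbour (ENSMUSG00000002265.16, chromosome 7, 6703892 to 6730431, minus strand), was at 25.2 to 108 CPM in Cth+/+ libraries, 66.3, 256, 59.1 and 193 CPM in Cth-/- CTRL and 510.2, 1285, 1248 and 1141 CPM in Cth-/- CysF. For both genes all Cth-/- CysF libraries lay above the other 12, and replicates 13 and 15 of Cth-/- CTRL were higher than 12 and 14. The interactions were 4.42 ± 0.80 for Zim1 (adjusted p = 0.00611) and 2.69 ± 0.74 for Peg3 (adjusted p = 0.0345; not past the test without replicate 1, 3, 4, 8, 11, 12, 14, 17, 18 or 20). Of 23 tested imprinted growth genes 3 were higher and 1 lower (17.4% called, against 10.4% of all genes), with a median of 0.31. Grb10, an adaptor that inhibits insulin signalling, was higher (0.95 ± 0.19, adjusted p = 0.00945) and Ndn, the gene of necdin, lower (-1.73 ± 0.33, adjusted p = 0.00721).

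The promoter window of Peg3 (chr7:6730370-6730669, minus strand, same source and length) is shown because it shares 263 bases with that of Usp29, which starts in the opposite direction; the Zim1 window ends 33687 bases away. Capitals mark the single match to TGACGTCA, the cyclic AMP response element.
Peg3: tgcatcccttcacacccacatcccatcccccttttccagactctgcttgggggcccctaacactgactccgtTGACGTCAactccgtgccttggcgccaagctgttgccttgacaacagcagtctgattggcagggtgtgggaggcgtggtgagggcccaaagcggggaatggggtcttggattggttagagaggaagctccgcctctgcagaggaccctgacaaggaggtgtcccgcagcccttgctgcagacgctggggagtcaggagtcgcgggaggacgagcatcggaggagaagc
These letters were in a promoter of 3.31% of tested genes, 3.03% of genes with a higher interaction and 1.95% of those with a lower one. Counted per promoter, they were in 1.79% of all promoters.

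Glucocorticoids are hormones of fasting and stress. Fkbp5, a cochaperone induced by their receptor, was at 58.9, 36.1, 66.9 and 58.0 CPM in Cth+/+ CTRL and at 118, 108, 131 and 164 CPM in Cth+/+ CysF. It was at 83.2, 141, 151 and 116 CPM in Cth-/- CTRL and at 258, 390.3, 402 and 410.1 CPM in Cth-/- CysF. The diets did not overlap in either genotype; the change was 1.24 ± 0.22 in Cth+/+ mice, which did not pass (adjusted p = 0.298), and 1.57 ± 0.22 in Cth-/- mice (adjusted p = 3.0e-04), and the interaction did not pass (0.33 ± 0.31, adjusted p = 0.507 by edgeR). Sgk1, a kinase induced by the same receptor, was higher (0.95 ± 0.22, adjusted p = 0.0197; not past the test without replicate 7, 8 or 18). Tsc22d3, the glucocorticoid-induced leucine zipper gene, was at 81.8, 89.6, 122 and 104 CPM in Cth+/+ CTRL and 130.4, 167, 178 and 233 CPM in Cth+/+ CysF, without overlap, and at 94.4 to 177 CPM in Cth-/- CTRL and 95.6 to 107 CPM in Cth-/- CysF (-1.24 ± 0.27, adjusted p = 0.0155). Of 24 tested genes 5 were higher and 1 lower in the interaction, with a median of 0.39; the median diet change was 1.07 in Cth-/- mice and 0.51 in Cth+/+ mice.

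For some genes another group stood apart. Tnfaip3, an inhibitor of NF-kappa B signalling, was at 9.16 to 12.7 CPM in Cth+/+ CTRL, 18.0 to 25.2 in Cth+/+ CysF, 15.9 to 18.1 in Cth-/- CTRL and 9.78 to 13.1 in Cth-/- CysF. The diets did not overlap in either genotype, and the means moved in opposite directions, by 0.96 ± 0.14 in Cth+/+ mice, which did not pass (adjusted p = 0.146), and -0.55 ± 0.14 in Cth-/- mice (adjusted p = 0.0117; interaction -1.50 ± 0.20, adjusted p = 0.00122 by edgeR). Cth+/+ CysF also stood apart for Sla, a leukocyte adaptor gene (-1.12 ± 0.27, adjusted p = 0.0219; not past the test without replicate 4 or 12). Cth+/+ CTRL stood apart for the clock gene Npas2, at 8.53 to 13.3 CPM there and 2.94 to 7.79 CPM in the other groups (1.29 ± 0.38, adjusted p = 0.0423; not past the test without replicate 2, 3, 4, 7, 10, 11, 12, 13, 14, 16, 17 or 18). Cth+/+ CTRL also stood apart for the clock repressor gene Cry1 (0.73 ± 0.19, adjusted p = 0.0288 by edgeR). Cry1 was not past the test without replicate 3, 4, 7, 12, 14, 17 or 18. Of 19 clock genes 2 were higher and 0 lower, 10.5% called against 10.4% of all genes tested. Cth-/- CTRL stood apart for the purine receptor gene P2ry1, at 8.33 to 10.3 CPM there and 4.21 to 8.71 CPM in the other groups (-1.03 ± 0.23, adjusted p = 0.0154), and for the lipid droplet coat gene Plin4 (-1.04 ± 0.29, adjusted p = 0.0366; not past the test without replicate 1, 2, 4, 10, 12, 13, 14, 17 or 20).

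**Figure D4:**
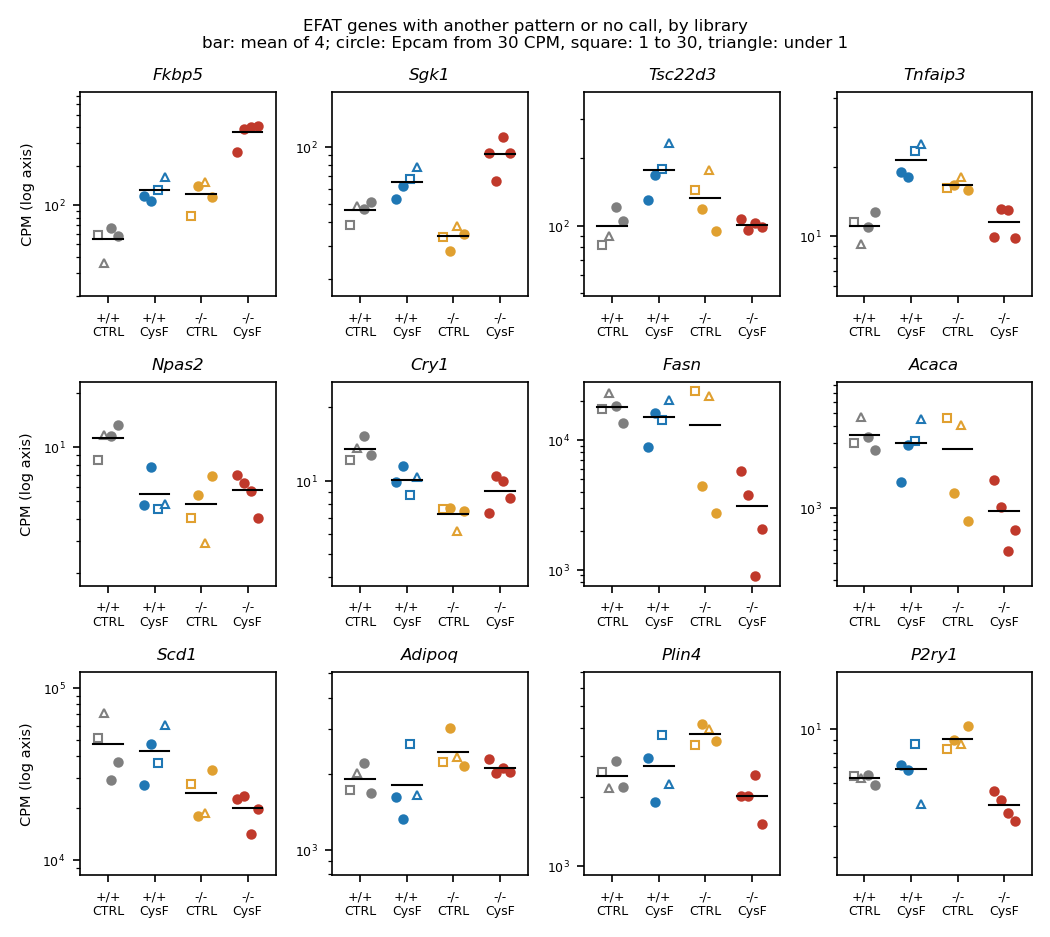
CPM on a log axis in each of the 16 EFAT libraries of 12 genes in which a group other than Cth-/- CysF stands apart or whose interaction did not pass, with Sgk1; bars are means of 4, and the symbol shape gives the Epcam level. Fkbp5 is higher on CysF in both genotypes, Tnfaip3 is highest in Cth+/+ CysF and Npas2 in Cth+/+ CTRL.

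Macrophage markers were lower for 8 of 19 tested lines of the table and higher for 0, with a median of -0.98. Their summed CPM was 1199 to 1377 in Cth+/+ CTRL, 1197 to 1703 in Cth+/+ CysF, 1431 to 1598 in Cth-/- CTRL and 929.9 to 1191 in Cth-/- CysF, where every library lay below the other 12, and none of the markers was at 0 in all libraries. The part of macrophage content in these results was not tested. C1qa, a complement chain made by macrophages, was at 73.2 to 93.5 CPM elsewhere and 35.5 to 49.7 CPM in Cth-/- CysF (-1.14 ± 0.17, adjusted p = 0.00188), and Adgre1, the antigen F4/80, was lower (-1.48 ± 0.29, adjusted p = 0.00882). Ccl8, a monocyte attractant, was at 2.06 to 13.0 CPM elsewhere and at 0.0492 to 0.436 CPM in Cth-/- CysF (-5.20 ± 0.77, adjusted p = 0.00188). Of 37 chemokine genes 6 were lower and 1 higher. With the library set as a term 2 macrophage lines passed.

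Ighm, the constant region of the immunoglobulin mu chain (ENSMUSG00000076617.9, chromosome 12, 113418558 to 113422730, minus strand), was at 859, 651, 741 and 712 CPM in Cth+/+ CTRL and at 613, 497, 797 and 620.3 CPM in Cth+/+ CysF. It was at 997, 311, 943 and 197 CPM in Cth-/- CTRL and at 37.4, 46.8, 36.9 and 37.3 CPM in Cth-/- CysF. The Cth-/- CysF libraries lay close together and below all others, and replicates 13 and 15 were the low pair of Cth-/- CTRL (-3.72 ± 0.56, adjusted p = 0.00201). It was the one B cell gene of 14 that passed, with a median of -0.76; Bank1, a B cell adaptor (-0.92 ± 0.29, adjusted p = 0.0592; past the test without replicate 7, 8, 16 or 17, with RLE scaling and by DESeq2), and Ighd, the delta chain gene (-0.39 ± 0.39, adjusted p = 0.539), did not pass. The summed CPM of the B cell genes, Ighm included, was 669.7 to 892, 516 to 825, 226 to 1015 and 49.8 to 63.3 in the same order of groups. Called members were 7.14% of the B cell list, against 10.4% of all genes tested.

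Of 21 thermogenic genes 0 passed by edgeR, 3 higher and 3 lower had an unadjusted p under 0.05, and DESeq2 called 1 higher and 3 lower. Ucp1, the uncoupling protein of thermogenic fat, did not pass the filter on low counts in EFAT: it had 5168 reads in replicate 11 of Cth+/+ CysF and 0 to 122 in the other 15 libraries. Of 13 mitochondrially encoded genes 0 passed by edgeR, 8 higher and 0 lower had an unadjusted p under 0.05, and DESeq2 called 2 higher; their median was 1.35. The mitochondrial share of counts was 4.82 to 14.7% over the libraries, and both ends were in Cth-/- CysF. Of 75 nuclear genes of oxidative phosphorylation 0 were higher and 2 lower (2.67% called, against 10.4% of all genes tested). Leaving out 1 library gave 0 to 21 calls (13 without replicate 15 and 21 without replicate 16).

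Genes of xenobiotic metabolism had 5 of 25 members higher and 1 lower, with a median of 0.66. Cyp2d22, a cytochrome P450, rose in Cth-/- mice from 40.3 ± 8.68 to 141 ± 11.3 CPM (1.75 ± 0.27, adjusted p = 0.00233). Fmo1, a flavin monooxygenase that also makes taurine (1.63 ± 0.31, adjusted p = 0.00761), and the P450 gene Cyp2f2 (3.77 ± 0.94, adjusted p = 0.0251; not past the test without replicate 4, 8 or 12) were higher. For both genes Cth-/- CysF overlapped the other libraries. Fmo1 was at 236 to 528 CPM in Cth-/- CysF and 131 to 241 CPM elsewhere. Cyp2f2 was at 12.5 to 285 CPM in Cth-/- CysF and 7.69 to 42.9 CPM elsewhere. Cyp2b10 was at 0.286 to 2.76 CPM in the 16 libraries and did not pass (-0.12 ± 0.71, adjusted p = 0.924).

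Other genes were named for their size of change. Chchd10, a mitochondrial intermembrane protein, rose in Cth-/- mice from 20.9 ± 8.62 to 209 ± 59.6 CPM (2.90 ± 0.41, adjusted p = 0.00142), and St3gal6, a sialyltransferase (2.61 ± 0.31, adjusted p = 5.6e-04), Hs3st3b1, a heparan sulfate sulfotransferase (3.21 ± 0.59, adjusted p = 0.00644), and Adtrp, a hydrolase of fatty acid esters (2.70 ± 0.68, adjusted p = 0.0258; not past the test without replicate 4, 12, 14, 17 or 20), were higher. Teddm2 was at 51.0, 6.20, 7.63 and 116 CPM in Cth-/- CysF and 0.846 to 3.77 CPM elsewhere (5.17 ± 1.14, adjusted p = 0.0155), with its high values in replicates 16 and 20, the libraries with over 100 CPM of Adam7. Cnksr2, a scaffold of Ras signalling, was at 2.85, 0.886, 0.524 and 20.5 CPM in Cth-/- CysF, highest in the same libraries. Elsewhere it was at 0 to 0.408 CPM, so it passed the filter on low counts only through Cth-/- CysF, where it is high. Its interaction was 6.33 ± 1.62 (adjusted p = 0.0277 by edgeR). It was not past the test without replicate 3, 4, 11, 12, 14 or 20, or without both replicates 16 and 20. Trabd2b, a protease of Wnt proteins, was at 81.0 to 185 CPM elsewhere and 11.6 to 17.5 CPM in Cth-/- CysF (-3.11 ± 0.32, adjusted p = 4.5e-04). Fam83a (-3.32 ± 0.56, adjusted p = 0.00391), Odf3l1 (-4.26 ± 0.91, adjusted p = 0.0139), Wfdc21 (-3.99 ± 0.81, adjusted p = 0.0106) and the tubulin gene Tuba1a (-3.10 ± 0.69, adjusted p = 0.0160) were lower.

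Of the 130 genes named by rule that passed the test, 13 passed in 26 of 27 alternatives: Acsm3, Adamts5, Ccl8, Chchd10, Col15a1, Col3a1, Loxl1, Mmp11, Slc27a1, Slc43a1, St3gal6, Thbs2 and Trabd2b. The exception for these 13 was the analysis of set A alone, in which 0 of the 130 passed; set A holds 1 library of Cth+/+ CTRL (replicate 3) and 1 of Cth-/- CysF (replicate 16), each assumed to vary like the other groups, so this count says nothing about stability. With the library set as a term 15 of the 130 passed. The 13 genes listed were among these 15, so with that term the interaction calls of nearly all other genes described ended. Without the 3 libraries under 1 CPM of Epcam 64 of the 130 passed, and in the 10 libraries at 30 CPM or more 32. Among the genes described above, the calls of Acot4, Mogat2, Mgll, Col5a3, Nid2, Dcn, Chac1, Psph, Slc7a6, Apln, Bcl6, Peg3, Grb10, Tsc22d3, Sla, Npas2, Cry1, Plin4, Cyp2f2, Teddm2, Cnksr2, Odf3l1 and Tuba1a ended in both of the last analyses, those of Acsm5, Mogat1, Pnpla3, Serpinh1, Omd, Adamts16, Dpt, Pi16, Hspa5, Edem1, Sdf2l1, Gclc, Lep, Npr3, Cish, Ndn, Sgk1, Tnfaip3, P2ry1, Adgre1, Fmo1, Hs3st3b1, Adtrp and Wfdc21 in the 10 libraries, and that of Agpat2 without the 3 libraries. The calls of Acot4, Dcn, Sgk1, Npas2, Cry1 and Plin4 also ended without the filter on low counts, and those of Acot4, Mogat2, Dcn, Apln, Bcl6, Npas2, Plin4 and Cnksr2 without the 2 libraries over 100 CPM of Adam7. Among the lists described, DESeq2 moved the number called by over 1.5 times for cholesterol synthesis (given above), fatty acid synthesis (2 higher and 3 lower), NRF2 targets (5 and 5), endoplasmic reticulum chaperones (1 and 11), adipokines (0 and 6), imprinted genes (6 and 1), clock genes (4 and 0), B cell genes (0 and 3) and nuclear oxidative phosphorylation (0 and 8).

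The interaction was compared between depots in 1 edgeR fit of all 48 libraries. It differed between EFAT and SFAT for 632 of 18348 genes (3.44%; 232 higher in EFAT, 1.26%, and 400 lower, 2.18%) and between EFAT and BAT for 760 (4.14%; 356 higher, 1.94%, and 404 lower, 2.2%). Without the 3 EFAT libraries under 1 CPM of Epcam the counts were 8 and 171, and a model that included the library set gave 155 and 122. Leaving out 1 replicate number gave 151 (replicate 4) to 1070 (replicate 11) genes for SFAT and 152 (replicate 12) to 1594 (replicate 15) for BAT; numbers 1, 2, 7, 10, 12, 13, 14 and 17 also moved the first count by over 1.5 times, and 1, 3, 4, 10, 11, 14, 17 and 18 the second. Dgat2 had interactions of -3.85 ± 0.53 in EFAT, -0.52 ± 0.51 in SFAT and 0.55 ± 0.51 in BAT, a difference of -3.33 ± 0.73 from SFAT (adjusted p = 0.0108; not past the test without the 3 libraries or with the set as a term) and of -4.40 ± 0.74 from BAT (adjusted p = 7.4e-04). Thbs2 had interactions of 3.50 ± 0.50, -0.22 ± 0.48 and -1.03 ± 0.55 in EFAT, SFAT and BAT, a difference of 3.72 ± 0.69 from SFAT (adjusted p = 0.00684; not past the test without the 3 libraries) and of 4.53 ± 0.74 from BAT (adjusted p = 6.7e-04).

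Acsm3 had interactions of 4.97 ± 0.55 in EFAT, 4.60 ± 0.54 in SFAT and 1.03 ± 0.51 in BAT; the difference from BAT passed (3.94 ± 0.73, adjusted p = 0.00265) and that from SFAT did not (0.38 ± 0.74, adjusted p = 0.817). Chchd10 had the same order (2.69 ± 0.50 from BAT, adjusted p = 0.00241; 0.40 ± 0.50 from SFAT, adjusted p = 0.682). Col1a1 was less negative in EFAT, at -2.14 ± 0.51, than in SFAT, at -5.55 ± 0.54 (difference 3.40 ± 0.72, adjusted p = 0.00995; not past the test without the 3 libraries), and its difference from BAT did not pass (1.68 ± 0.72, adjusted p = 0.149). Igsf10, an immunoglobulin superfamily gene, was at -0.22 ± 0.41 in EFAT and -3.59 ± 0.42 in SFAT (difference 3.37 ± 0.58, adjusted p = 0.00499), and the alarmin gene Il33 at 0.81 ± 0.38 and -2.12 ± 0.39 (difference 2.92 ± 0.54, adjusted p = 0.00684). The EFAT value of Ucp1 in this fit rests on the reads of replicate 11, so its depot differences are not described as results.

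**Figure D5:**
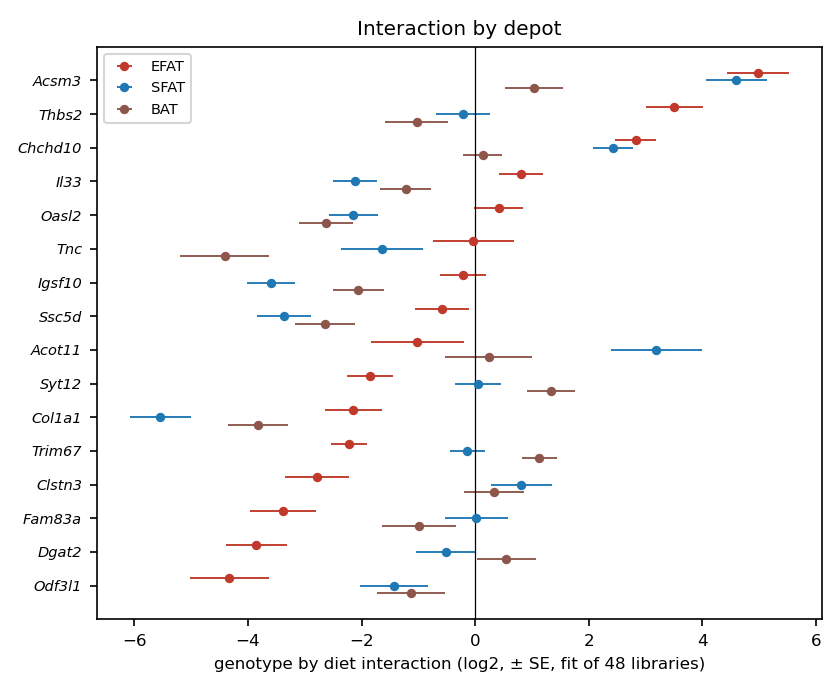
Genotype by diet interaction (log2 ± SE) in EFAT, SFAT and BAT, from the fit of all 48 libraries, for the genes named by rule for a difference between depots. Dgat2 and Thbs2 are far from 0 in EFAT and near it in SFAT, while Igsf10 is near 0 in EFAT and negative in SFAT and BAT.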

How the data were processed

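The analysis covers 16 visceral fat libraries, and 32 of the other depots for depot differences only. The authors deposited expected counts per gene, unscaled, for 47729 genes; per the submitters' processing notes, FastQC, STAR, Picard and RSEM were used with the build mm10, whose versions the sources used here do not give. Expected counts divide reads between similar genes, so near-identical copies are uncertain, and whether counting used strand is not given. Coordinates come from GENCODE M21 by gene ID and promoters from RefSeq (GRCm38.p6).

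Expected counts were rounded and tested with edgeR 4.0.16 (quasi-likelihood F-test, TMM scaling, R 4.3.3) in 4 groups after filterByExpr (minimum count 10, minimum total 15), two-sided, with a threshold of 0.05 on Benjamini-Hochberg adjusted p. The group that stands apart was found from group means of log2 CPM with a prior count of 2. In data simulated for the EFAT interaction on 17002 genes, 40% of 100 genes with a 2-fold and 85% of 100 with a 4-fold interaction were recovered, with 4 false calls among 129.

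Genes were named by rule: the 12 largest interactions each way (protein-coding, mean of at least 5 CPM), genes always named, up to 4 passing and 2 other members of each list described, up to 4 genes per other group that stands apart, and 5 each way per depot difference; not all are described. Members, lists and rules were chosen with earlier results of these data known. Alternatives were RLE scaling, no filter, robust dispersion, DESeq2 1.42.0, each library left out, the library set as a term or set A alone, and the fit of all 48 libraries; those based on Epcam and Adam7 were chosen after seeing the data. Python 3.11.15 with pandas 2.3.3 and matplotlib 3.10.9 made tables and figures.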

Additional observations from a re-analysis of the deposited data

Results flagged for a closer look

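In the groups of 4, a library was taken as far from the others where its gap to the nearest library exceeded Dixon's 95% critical value for 4 samples; 25 of 408 gene and group pairs over 102 genes did so, and chance alone gives about 1 in 20. In Cth+/+ CTRL these were replicate 1 for Acot3 (0.0893 CPM, others at 0), replicate 2 for Mogat2 (32.1 CPM, others 15.2 to 15.9), replicate 3 for Asns (72.2 CPM, others 67.1 to 67.6) and replicate 4 for Edem1 (139 CPM, others 166 to 168). In Cth+/+ CysF these were replicate 8 for Col15a1 (1087 CPM, others 989.9 to 1000), Fbn1 (757 CPM, others 273 to 321), Adamts16 (4.19 CPM, others 1.31 to 1.59) and Npas2 (7.79 CPM, others 4.55 to 4.81) and replicate 11 for Psph (39.0 CPM, others 19.6 to 22.0), C1qa (73.2 CPM, others 89.7 to 92.5) and Cyp2b10 (2.76 CPM, others 1.12 to 1.20). In Cth-/- CTRL these were replicate 13 for Acot4 (8.94 CPM, others 6.33 to 6.67) and Grb10 (89.1 CPM, others 74.5 to 76.6) and replicate 14 for Cry1 (6.19 CPM, others 7.52 to 7.69). In Cth-/- CysF these were replicate 16 for Zim1 (64.6 CPM, others 132 to 142), Col5a3 (258 CPM, others 40.8 to 70.8), Trabd2b (17.5 CPM, others 11.6 to 12.3), Psph (6.71 CPM, others 3.70 to 4.08) and Fkbp5 (258 CPM, others 390.3 to 410.1), replicate 17 for Ighm (46.8 CPM, others 36.9 to 37.4), replicate 18 for Mmp11 (82.1 CPM, others 40.7 to 45.3) and replicate 20 for Hs3st3b1 (60.7 CPM, others 10.2 to 18.2), Cish (47.6 CPM, others 19.5 to 24.2), Lep (44.2 CPM, others 193 to 206) and Cnksr2 (20.5 CPM, others 0.524 to 2.85). 

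The genotypes differed in their diet response for 1792 genes in EFAT, and the interaction differed between EFAT and SFAT for 632 genes and between EFAT and BAT for 760, each by the edgeR test of the difference itself. Against SFAT, the log2 difference of the interaction was negative for Acot11 (-4.21), Clstn3 (-3.59), Fam83a (-3.41) and Dgat2 (-3.33) and positive for Thbs2 (3.72), Col1a1 (3.40), Igsf10 (3.37), Il33 (2.92) and Ssc5d (2.78). Of 23 alternatives, the difference was not past the test in 12 for Acot11, 4 for Ssc5d, 3 for Fam83a, 2 each for Clstn3 and Dgat2 and 1 each for Thbs2 and Col1a1. Against BAT, the log2 difference of the interaction was negative for Dgat2 (-4.40), Trim67 (-3.35), Odf3l1 (-3.19) and Syt12 (-3.18) and positive for Thbs2 (4.53), Tnc (4.38), Acsm3 (3.94), Oasl2 (3.04) and Chchd10 (2.69). Here it was not past the test in 14 of 23 alternatives for Odf3l1 and in 6 for Tnc.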

How the results depend on the processing

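In place of 1792 interactions, 1002 (279 higher, 723 lower) passed without the filter on low counts, 57 with the library set as a term, 3 in set A alone (0 of them among the 1792; 2 groups hold 1 library each there), 536 without the 3 libraries under 1 CPM of Epcam, 202 in the 10 libraries at 30 CPM or more and 2896 by DESeq2; RLE scaling gave 1727 and moved the median of all genes from 0.06 to 0.01. Leaving out 1 library gave 714 to 3414. The diet count in Cth-/- mice (4976) was 3117 with the set as a term, 65 in set A alone, 1694 in the 10 libraries, and 2962 to 5886 with 1 library left out. In Cth+/+ mice (0) DESeq2 gave 36 and leaving out 1 library 0 to 1. Cth-/- CysF stood apart for 309 genes at an adjusted p under 0.01, 985 without the filter, 56 with the set, 2 in set A, 525 without the 3 libraries, 188 in the 10 libraries, 2775 by DESeq2 and 694 to 3293 with 1 left out. The depot counts (632 for SFAT, 760 for BAT) were 300 and 304 without the filter, 155 and 122 with the set, 8 and 171 without the 3 EFAT libraries, 1369 and 1498 by DESeq2, and 151 to 1070 and 152 to 1594 with 1 number left out. With the replicate number as a block they were 1876 and 2100. The same numbers, each with the same genotype and diet, label the libraries of every depot, but the labels do not state a shared animal. Deviations of same-numbered libraries correlated above 0.1 in 10 of 16 pairs for EFAT and SFAT and 6 of 16 for BAT and EFAT. Whether same-numbered libraries come from the same animal was not settled, so the main counts do not take them as pairs. Within EFAT the groups share no number and no paired analysis was possible. Among values past the test in either setting, signs reversed for Emcn in set A alone (-0.19) and for the EFAT minus BAT value of Ucp1 without replicate 11 (0.35, in a range of -12.08 to 0.35 over the libraries left out) and without the 3 EFAT libraries (0.0937). Of 101 named genes not past the interaction test, 52 changed sign under at least 1 alternative and 26 passed under at least 1. The cause of these movements was not tested. Genes at a few CPM carry more relative counting error than abundant genes, at 18710000 to 36110000 counts per library. The part of counting error in their spread was not tested.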

Other observations

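The remaining gene lists are given beside the shares of all genes tested, 5.04% higher and 5.35% lower. Among genes of insulin signalling and glucose uptake, 1 of 29 were higher and 2 lower (median -0.18; 1 and 6 by DESeq2). Among interferon response genes, 0 of 26 were higher and 1 lower (median -0.19; 0 and 3 by DESeq2). Of proliferation genes, 0 of 28 were higher and 1 lower (median -0.89). For mitochondrial ribosomal protein genes, 2 of 74 were higher and 2 lower (median -0.32), and leaving out 1 library gave 1 to 19 calls (17 without replicate 15 and 19 without replicate 16); DESeq2 called 2 higher and 12 lower. For cytosolic ribosomal protein genes, 9 of 82 were higher and 1 lower (median 0.04), a median that was -0.0042 with RLE scaling, where 5 were higher and 1 lower. In coenzyme A synthesis, 0 of 13 were higher and 1 lower (median 4.1e-04), a median that was -0.04 with RLE scaling. Among endothelial markers, 2 of 14 were higher and 0 lower (median 0.21). Among pericyte and smooth muscle markers, 0 of 12 were higher and 1 lower (median 0.53). Among skeletal muscle markers, 0 of 13 were higher and 2 lower (median -1.62). Their median diet change was -0.11 in Cth-/- mice and 0.59 in Cth+/+ mice. The summed CPM of the muscle list was 17.9 to 24.4 in Cth-/- CysF and 23.2 to 64.5 in Cth-/- CTRL. In Cth+/+ mice it was 28.5 to 48.4 on CTRL and 20.5 to 116 on CysF, highest in replicate 11. Among Schwann cell and nerve markers, 0 of 9 were higher and 1 lower (median -0.53). By edgeR 0 members passed in the other cell type lists: mesothelial (14 tested, median 0.47, 0 higher and 0 lower at an unadjusted p under 0.05, 0 by DESeq2), epididymal and other epithelial (7 tested, median 5.86, 4 higher and 0 lower at an unadjusted p under 0.05, 2 by DESeq2), plasma cell (9 tested, median 0.07, 1 higher and 0 lower at an unadjusted p under 0.05, 1 by DESeq2), T and NK cell (13 tested, median 0.47, 2 higher and 0 lower at an unadjusted p under 0.05, 0 by DESeq2), neutrophil and mast cell (10 tested, median -0.19, 0 higher and 0 lower at an unadjusted p under 0.05, 0 by DESeq2) and erythroid (6 tested, median -0.45, 0 higher and 2 lower at an unadjusted p under 0.05, 1 by DESeq2). The summed CPM of the epithelial list was high only in replicates 16 and 20 of Cth-/- CysF, as given above.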
